A study of Caenorhabditis elegans with 4 samples.

Results

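Transcripts of the 4 β-catenin genes of *Caenorhabditis elegans* (*bar-1*, *wrm-1*, *sys-1* and *hmp-2*), of the TCF gene *pop-1* and of the Nemo-like kinase gene *lit-1* were followed in whole larvae of the first stage, L1. These 6 genes were chosen by name, and all 6 were found among the 19913 genes of the deposited table of counts. The RNA-Seq libraries came from 2 strains, the wild type N2 and *pry-1(mu38)*, with 2 libraries each that the study's methods describe as biological replicates. Both strains were grown on standard nematode medium and synchronized by bleaching, and neither carried a transgene. The *mu38* allele is a nonsense mutation of *pry-1*, the worm Axin, and it is present in every cell of the animal, and the libraries pool all tissues of many larvae. In such whole-animal RNA, fewer cells of a type and less RNA per cell cannot be told apart.

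Wnt signals reach the nucleus through β-catenin and TCF. In the canonical route, a destruction complex built on Axin, APC and GSK-3 marks β-catenin for breakdown, and a Wnt signal spares it so that it can join TCF on target genes. In vertebrates β-catenin serves in transcription and in cell junctions, while in *C. elegans* these tasks are spread over separate genes. BAR-1 is the β-catenin of the canonical route. In the β-catenin asymmetry pathway, which sets the daughters of many dividing cells apart, WRM-1 binds the kinase LIT-1 and the pair drives phosphorylation and nuclear export of POP-1, while SYS-1 acts as coactivator of the POP-1 that stays in the nucleus. HMP-2 links the cadherin HMR-1 to the α-catenin HMP-1 in adherens junctions. These proteins are controlled largely through their stability and their place in the cell, neither of which is measured by a count of transcripts.

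The libraries held from 27741375 to 33230854 counts on genes. Counts were scaled to library size with edgeR's TMM method and are given as CPM, the count a gene would have in a library of 1000000 counts. Across the 15101 genes tested, the log2 difference between the N2 libraries had an SD of 0.801 and that between the *pry-1(mu38)* libraries of 0.457, so the N2 libraries were the less alike pair, and results that move when a library is removed are given both ways. The gene *pry-1* had 70.5 and 61.9 CPM in N2 replicates 1 and 2 and 118 and 108 CPM in *pry-1(mu38)* replicates 1 and 2. A nonsense mutation can leave the transcript countable, so this level does not check the genotype. Markers of neurons, muscle, intestine, hypodermis and seam cells were detected in each library, as a whole larva would give. A hypodermis marker, *lin-26*, was close to 0 in each of them, at 0.031 to 0.183 CPM. The 7 early zygotic embryo markers added up to only 0.993 to 2.84 CPM per library.

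Each of the 6 genes was well counted, from 651 counts of *sys-1* in N2 replicate 2 to 6840 counts of *lit-1* in *pry-1(mu38)* replicate 1, which corresponds to a counting error (SD) of 3.92% and 1.21%. Counting error was small beside the gap between the N2 libraries of *wrm-1*, *sys-1* and *pop-1* described below, but not beside the differences among the libraries of *bar-1*, where it was 2.98% to 3.30%. By the annotation of build WBcel235, *bar-1* lies on chromosome X, *wrm-1* and *lit-1* on chromosome III and *sys-1*, *hmp-2* and *pop-1* on chromosome I, all as protein-coding genes. Exons of *bar-1* overlap the neighbouring *pgp-10* by 17 bases on the opposite strand, which can assign few reads wrongly. A short non-coding RNA gene overlaps 100 exon bases of *pop-1* on the same strand, and no other annotated gene shares exon bases with the 6.

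Levels were compared between genes as CPM per kilobase of exon. The kinase gene *lit-1* had the highest level, from 56.7 to 62.1 over the 4 libraries. The junction β-catenin gene *hmp-2* followed with 42.4 to 49.4, a range that lay wholly below that of *lit-1*. The range of *pop-1* was wide, from 21.2 to 50.3, and it contained that of *hmp-2*, so these neighbours in the order did not differ beyond their spread. The remaining β-catenins were lower and overlapped each other, with 12.5 to 13.1 for *bar-1*, 6.82 to 14.3 for *sys-1* and 7.34 to 13.1 for *wrm-1*. Among 14094 tested genes with a known length, 86.4% had a lower mean level than *lit-1*, 53.3% a lower level than *bar-1* and 49.7% a lower level than *wrm-1*. Of the summed level per kilobase of the 4 β-catenins, *hmp-2* made up from 55.0% to 60.9% of a library. The order was the same with the longest transcript in place of all exons.

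The strains were compared to ask whether a mutant in the Axin scaffold also differs in the transcripts of the factors that act below it. The means of *pop-1*, *sys-1* and *wrm-1* were higher in *pry-1(mu38)* than in N2, each with a gap between the N2 libraries as large as the difference between the strains, and *bar-1*, *hmp-2* and *lit-1* were at nearly the same level in both strains. None of the 6 genes passed the quasi-likelihood test of edgeR after Benjamini-Hochberg adjustment over all genes, a threshold that 1 gene, or 0.00662% of those tested, passed. None had an unadjusted p under 0.05, against 14.6% of all tested genes. Of the 6 genes, 5 had a positive log2 fold change of *pry-1(mu38)* over N2, against 7300 of all 15101 genes tested. The median of the 6 was 0.25, beside -0.023 over all genes tested. In 4 of the 6 the lower mutant library exceeded the higher N2 library, against 29.1% of tested genes, and in *bar-1* both mutant libraries lay below, against 28.0%. With library sizes alone in place of TMM, *wrm-1* also lay above and *bar-1* overlapped. With 2 libraries on each side, the smallest p of an exact permutation test (two-sided) is 0.333, and the p-values below rest on the spread that edgeR shares across genes.

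**Figure D1:**
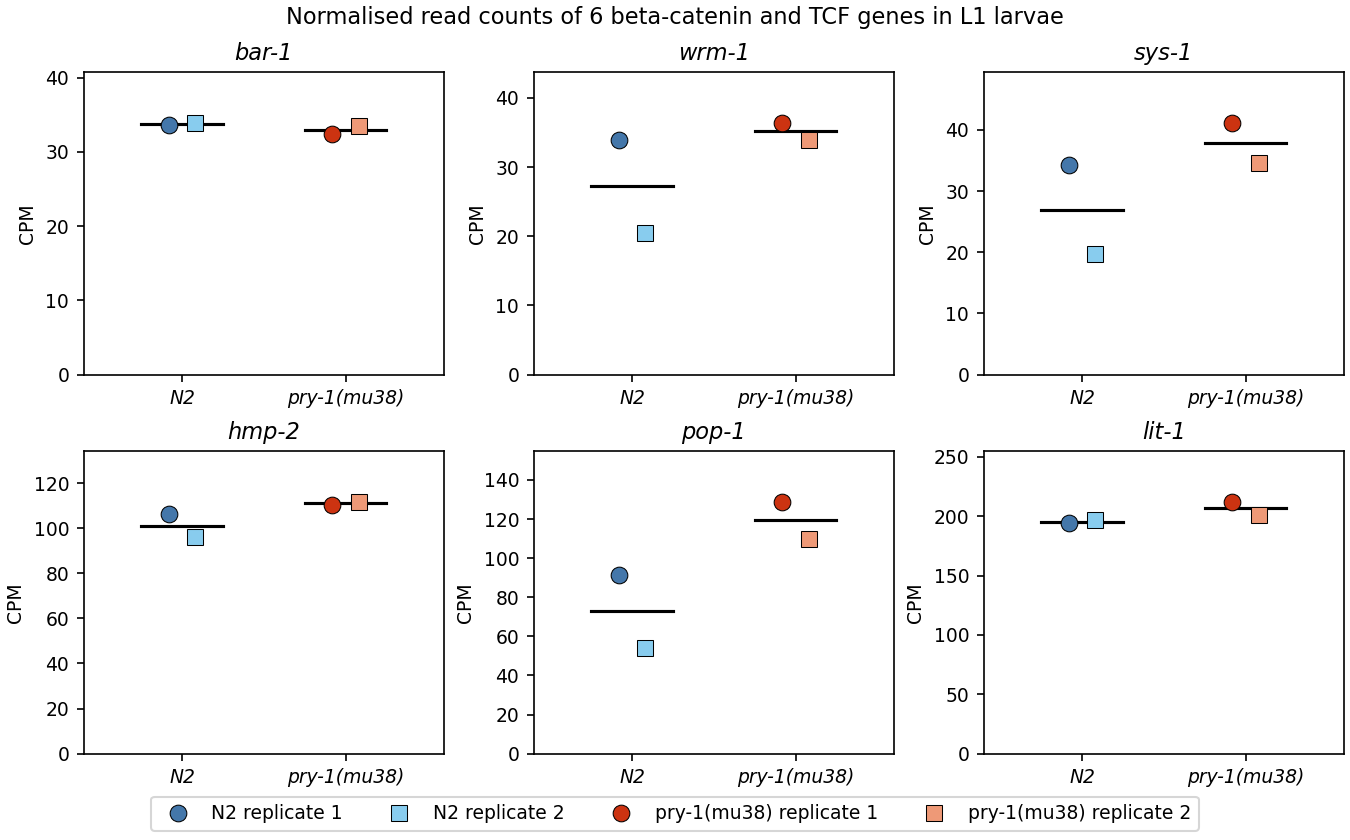
Normalised read counts (CPM, axes from 0) of the 6 genes in each of the 4 libraries, with a bar at the mean of each strain. N2 replicate 2 lies far below the other libraries for *wrm-1*, *sys-1* and *pop-1* (20.5, 19.7 and 54.2 CPM), while the 4 libraries of *bar-1* lie between 32.4 and 33.9 CPM.

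For *bar-1*, the β-catenin of the canonical route, the level was 33.6 and 33.9 CPM in N2 and 32.4 and 33.5 CPM in *pry-1(mu38)*. The 4 values were closer together than those of any other of the 6 genes. The means were 33.8 ± 0.243 and 33.0 ± 0.742 CPM (SD, n = 2 libraries each). The log2 fold change was -0.035 (standard error 0.16, adjusted p = 0.912 in edgeR's quasi-likelihood test), and the 95% interval of the fold ran from 0.731 to 1.30. Its sign was not fixed by the data, since it was 0.0021 with upper-quartile scaling and 0.0030 without *pry-1(mu38)* replicate 1.

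The junction β-catenin gene *hmp-2* had 106 and 96.1 CPM in N2 and 110.3 and 112 CPM in *pry-1(mu38)*. Both mutant libraries were above both N2 libraries, the nearest values being 4.17 CPM apart, which is less than the distance between the N2 libraries. The log2 fold change was 0.14 (standard error 0.15, adjusted p = 0.622), with a 95% interval of the fold from 0.839 to 1.44.

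The level of *wrm-1*, the β-catenin that partners LIT-1, was 34.0 CPM in N2 replicate 1 and 20.5 CPM in N2 replicate 2. In *pry-1(mu38)* it was 36.4 and 33.9 CPM, so the strains overlapped and N2 replicate 2 alone stood low, at 60.2% of the other N2 library. The log2 fold change was 0.37 (standard error 0.28, adjusted p = 0.491), with a 95% interval of the fold from 0.775 to 2.15. Without N2 replicate 2 it was 0.044, a ratio of 1.03.

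For *sys-1*, the coactivator of POP-1, the N2 libraries had 34.2 and 19.7 CPM and the *pry-1(mu38)* libraries 41.2 and 34.6 CPM. Here too N2 replicate 2 was the low library, at 57.6% of the other, and *pry-1(mu38)* replicate 2 exceeded N2 replicate 1 by only 0.435 CPM. The log2 fold change was 0.49 (standard error 0.31, adjusted p = 0.424), with a 95% interval of the fold from 0.807 to 2.46, and without N2 replicate 2 it was 0.14.

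The TCF gene *pop-1* had 91.3 CPM in N2 replicate 1 and 54.2 CPM in N2 replicate 2, and 129 and 109.9 CPM in *pry-1(mu38)* replicates 1 and 2. It was the gene of the 6 with the widest gap between the strains, since the lower mutant library exceeded the higher N2 library by 18.7 CPM. The means were 72.8 ± 26.2 CPM in N2 and 119.4 ± 13.4 CPM in the mutant (SD, n = 2 each). The log2 fold change was 0.72 (standard error 0.29, unadjusted p = 0.0569, adjusted p = 0.337 in the quasi-likelihood test), a ratio of 1.64 with a 95% interval from 0.979 to 2.75. The gap between the N2 libraries, 0.75 on the log2 scale, was as large as the difference between the strains. Without N2 replicate 2 the log2 fold change was 0.38, a ratio of 1.30. DESeq2 called 3.22% of tested genes (1.19% as higher in the mutant), edgeR's exact test 1.93% (0.967%) and DESeq2 after quantile normalization 3.29% (1.45%), and none of them called *pop-1* or any of the other 5. The study's own comparison of these strains, by DESeq after quantile normalization, listed *pop-1* as increased in *pry-1(mu38)*. That comparison called many more genes, most of them lower in the mutant, than DESeq2 after quantile normalization did here. With the replicate number as a block, edgeR called 16.1% of tested genes (4.59% as higher) and *pop-1* among them (adjusted p = 0.0169), although nothing in the labels shows that the number pairs the libraries.

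The kinase gene *lit-1*, which codes for the partner of WRM-1 that phosphorylates POP-1, had 194 and 197 CPM in N2 and 212 and 201 CPM in *pry-1(mu38)*. The mutant libraries lay above, by 4.22 CPM at the nearest, and the log2 fold change was 0.081 (standard error 0.15, adjusted p = 0.762). The 95% interval of the fold ran from 0.814 to 1.37.

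**Figure D2:**
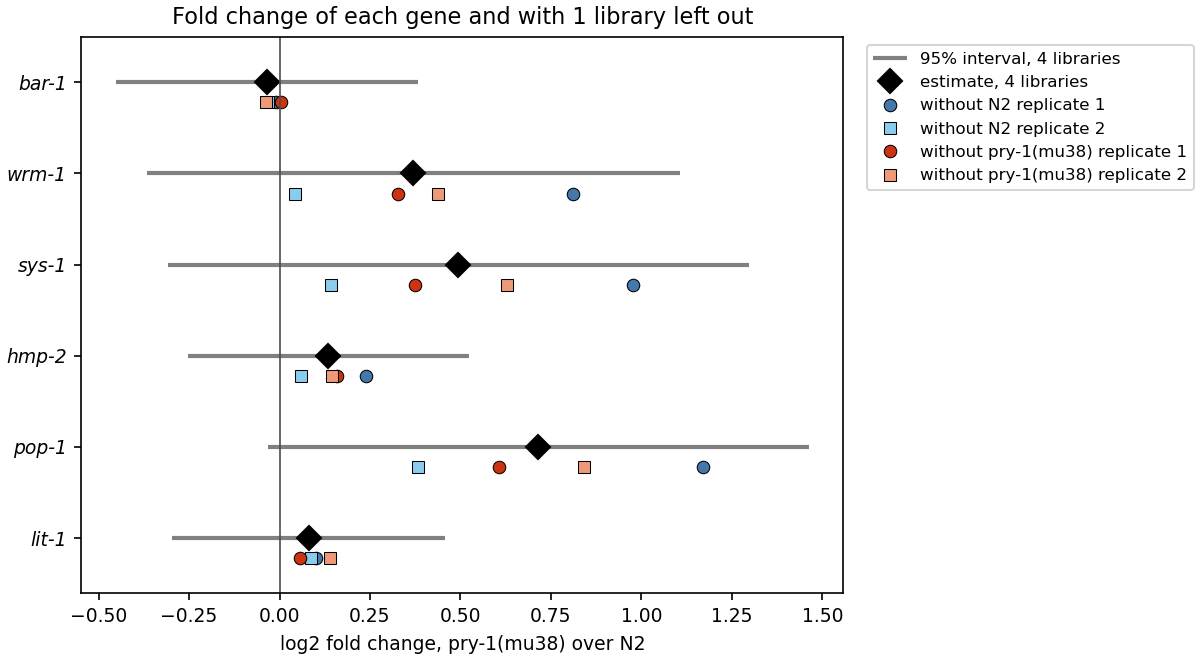
Log2 fold change of *pry-1(mu38)* over N2 (x axis) for the 6 genes, with all 4 libraries (diamond, with its 95% interval) and with each library left out in turn (small symbols). Each interval includes 0. Leaving out N2 replicate 2 moves *pop-1* from 0.72 to 0.38 and leaves *lit-1* at 0.086.

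The choice of N2 library decided the size of 3 of these values. Against N2 replicate 2 alone, that is without N2 replicate 1, the log2 fold changes were 0.81 for *wrm-1*, 0.98 for *sys-1* and 1.17 for *pop-1*. In that fit these 3 genes passed, with adjusted p-values of 0.0439, 0.0450 and 0.0439 in edgeR's quasi-likelihood test, in which the lone N2 library is assumed to vary like the mutant libraries. The same fit called 28.9% of all tested genes, 13.6% of them being higher in *pry-1(mu38)* as a share of those tested. Without N2 replicate 2 the test called 1.75% of tested genes (0.582% as higher), 0.328% (0.107%) with mutant replicate 1 removed and 3.04% (0.335%) with mutant replicate 2 removed, and in these fits it called none of the 6. The values of *bar-1*, *hmp-2* and *lit-1* ranged from -0.037 to 0.24 whichever library was left out.

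Over the 4 libraries the genes thus showed distinct profiles, taken as log2 CPM centred on each gene's own mean. The distance between profiles, over 4 libraries and with no test, was 0.144 to 0.206 among *bar-1*, *hmp-2* and *lit-1* and 0.170 to 0.356 among *wrm-1*, *sys-1* and *pop-1*. Across these trios, which were formed after the values had been seen, it was 0.507 to 0.980. From low to high, the libraries stood in the order N2 replicate 2, N2 replicate 1, *pry-1(mu38)* replicate 2, *pry-1(mu38)* replicate 1 for *sys-1* and *pop-1*, an order found in 18.3% of tested genes. N2 replicate 2 was the lowest library for 4 of the 6 genes, against 40.6% of tested genes. Neither count was tested.

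**Figure D3:**
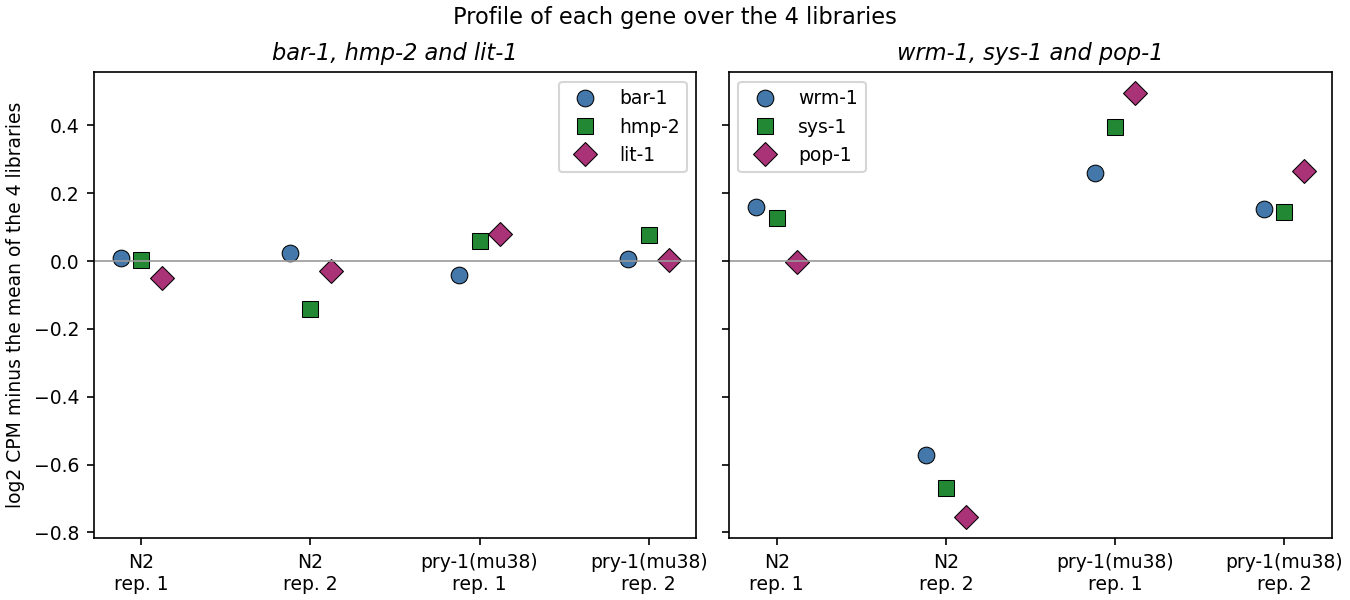
Log2 CPM of each gene minus its mean over the 4 libraries (y axis), by library (x axis), for *bar-1*, *hmp-2* and *lit-1* at left and *wrm-1*, *sys-1* and *pop-1* at right. The left-hand genes stay near 0, and at right N2 replicate 2 lies lowest for all 3 genes.

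Among 3949 named genes with a mean of at least 10 CPM, the profile most like that of *pop-1* was that of *rib-2*, at a distance of 0.033, followed by the mismatch repair gene *mlh-1* at 0.041 and *fkb-2* at 0.050. Nearest to *sys-1* was *pme-3* at 0.023, then *lnp-1* at 0.057 and the checkpoint kinase gene *chk-1* at 0.058. Nearest to *wrm-1* was the histone variant gene *htz-1* at 0.023, then the nucleoporin gene *npp-20* at 0.031 and *cyn-15* at 0.032. For *lit-1* the nearest genes included *gsk-3*, the kinase of the destruction complex, at 0.027, behind *lpd-3* at 0.023 and before the casein kinase gene *csnk-1* at 0.031. The genes nearest to *bar-1* were *gbf-1* at 0.031, *apb-1* at 0.032 and *ger-1* at 0.032, and those nearest to *hmp-2* were *mvb-12* at 0.016, *atx-2* at 0.019 and *paa-1* at 0.038. With 4 libraries such nearness describes the order and size of 4 values only.

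Markers of dividing cells varied over the libraries together with *wrm-1*, *sys-1* and *pop-1*. All 12 replication and cell cycle genes had a positive log2 fold change (median 0.39, none called), against 7300 of the 15101 tested genes. The 12 include the *mcm* genes of the replicative helicase, and N2 replicate 2 was the lowest library for all 12, against 40.6% of tested genes. The summed level of the 12 was 1198 and 871 CPM in N2 and 1370.3 and 1308 CPM in *pry-1(mu38)*. Without N2 replicate 2 their median was 0.16. The 6 seam cell markers, of the epidermal stem-like cells in which the asymmetry pathway acts, added up to 61.8 and 42.2 CPM in N2 and 77.0 and 64.9 CPM in *pry-1(mu38)*, with *nhr-73* at or near 0. Much of each sum came from *elt-1*, a GATA factor gene, with 35.5, 20.2, 45.4 and 35.5 CPM in the libraries in the same order. Of the 5 seam cell markers tested 4 had positive values, and *nhr-74* had -0.17. The seam cell median was 0.46, and 0.18 without N2 replicate 2. Body wall muscle markers went the other way, with 12574.5 and 23077 CPM in N2 and 12093 and 12195 CPM in *pry-1(mu38)*, as did those of pharyngeal muscle, with 292 and 847 CPM against 59.6 and 166 CPM. The median log2 fold change of the body wall muscle markers was -0.57, and -0.061 without N2 replicate 2. For pharyngeal muscle these medians were -2.26 and -1.27. The part that such shifts have in the levels of the 6 genes was not tested.

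The remaining marker lists were more mixed. Intestine markers added up to 2198 and 2285 CPM in N2 and 2151 and 2011 CPM in *pry-1(mu38)*, and those of neurons to 1656 and 1854 against 1802 and 1772 CPM. Hypodermis markers gave 168 and 115 CPM against 151 and 158, and molting cycle genes 1029.7 and 721 CPM against 1129 and 1153, so N2 replicate 2 had the lowest sum of both lists. It was the lowest library for 3 of 3 hypodermis markers tested and 6 of 9 molting cycle genes, against 40.6% of tested genes. The molting cycle median log2 fold change was 0.37, and 0.031 without N2 replicate 2. For hypodermis these medians were 0.17 and -0.12. Germline markers were low throughout, at 13.9 and 28.9 CPM in N2 and 13.4 and 15.5 CPM in *pry-1(mu38)*. Maternal and oocyte transcripts added up to 17.3 and 33.6 CPM in N2 and 33.0 and 35.6 CPM in *pry-1(mu38)*. The early zygotic markers *med-1*, *tbx-37* and *tbx-38* were at or near 0 in each library, the highest value being 0.124 CPM.

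Because protein ratios, above all that of SYS-1 to POP-1, set the output of the asymmetry pathway, transcript ratios were formed within each library, where they do not depend on the scaling. Per kilobase, the ratio of *sys-1* to *pop-1* was 0.332 and 0.322 in N2, and the mutant libraries gave 0.283 and 0.279. The ratio was thus nearly the same in the N2 libraries, although each of the genes differed by more than 1.5-fold between them, and both mutant libraries lay below. On the log2 scale the means were -1.61 ± 0.033 and -1.83 ± 0.015 (SD, n = 2 libraries each), a difference of -0.22, and leaving out any library kept it between -0.24 and -0.19. The counting error of a single ratio was up to 0.066. An exact two-sided permutation test gave p = 0.333, the smallest p possible here, and 0.556 when adjusted over the 5 ratios formed.

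The ratio of *bar-1* to *pop-1* was 0.364 and 0.618 in N2, and the mutant libraries gave 0.249 and 0.301. It was lower in both mutant libraries, by 0.79 on the log2 scale in the mean and by 0.41 without N2 replicate 2, as follows from a flat *bar-1* and a higher *pop-1* (exact permutation p = 0.333). The ratio of *wrm-1* to *lit-1* was 0.215 in N2 replicate 1 and 0.210 and 0.206 in *pry-1(mu38)*, while N2 replicate 2 stood apart at 0.127, so the strains overlapped (exact permutation p of 1). For *wrm-1* to *sys-1* the values lay close to 1 throughout, with 1.03 and 1.08 in N2, 0.915 in mutant replicate 1 and 1.01 in mutant replicate 2. Both mutant libraries again lay below both N2 libraries (exact permutation p = 0.333). The nearest values were 0.022 apart on the log2 scale, less than the counting error of a single ratio, which was up to 0.079. The ratio of *hmp-2* to *hmp-1*, the β-catenin to the α-catenin of the junction, was 1.36 and 1.70 in N2, and the values in *pry-1(mu38)*, 1.46 and 1.53, lay between them.

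**Figure D4:**
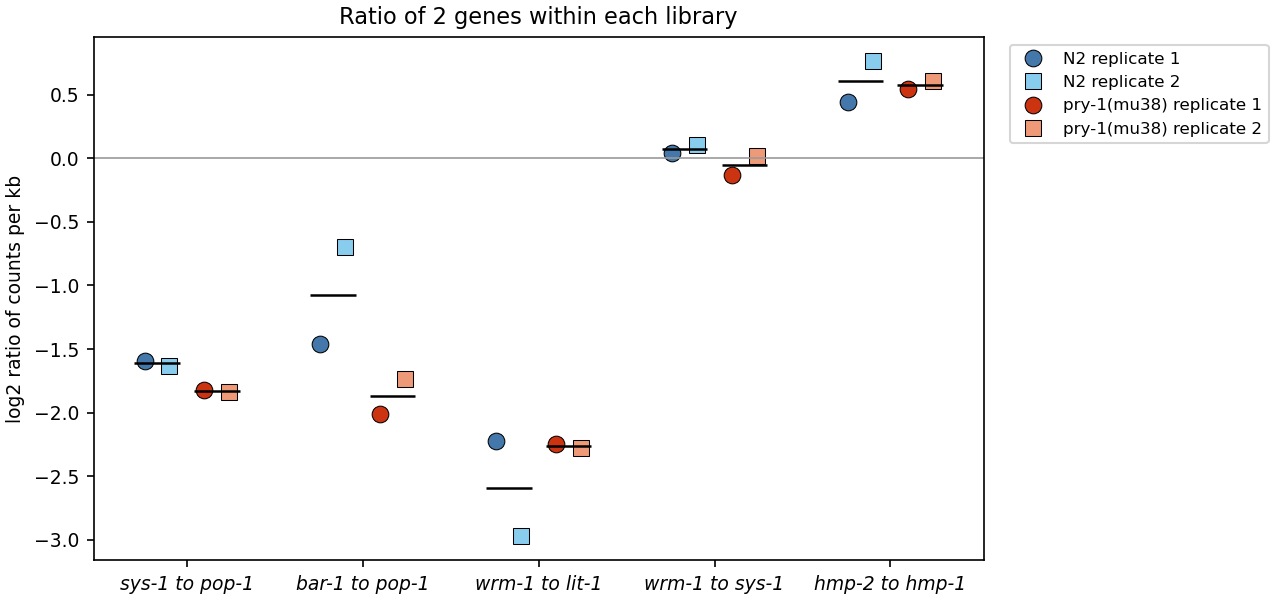
Log2 ratio of counts per kilobase of the genes of each pair within each library (y axis), with bars at the strain means. For *sys-1* to *pop-1* the libraries of a strain lie within 0.046 of each other and the strains 0.18 apart at the nearest, while for *wrm-1* to *lit-1* N2 replicate 2 alone stands low.

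The other genes of the pathway, taken from lists by role, gave 43 tested genes, 29 with a positive and 14 with a negative log2 fold change. Over all 15101 tested genes, 7300 had a positive value. The lists were chosen with earlier results of these data known. None of the 43 genes was called by the quasi-likelihood test over all genes. Before adjustment, 4 had a p under 0.05 and a higher level in the mutant, against 6.1% of all tested genes, and 1 had a lower level, against 8.53%. The 4 were the Wnt ligand gene *mom-2*, the Frizzled gene *lin-17*, *pry-1* itself and the Hox gene *mab-5*, and the 1 was *vab-9*, which codes for a claudin-like junction protein. DESeq2, which called 3.22% of all tested genes, called 1 of the 43, *pry-1*, and edgeR's exact test, which called 1.93%, called none. In the study's own comparison, which called many more genes than DESeq2 did here, *mom-2*, *lin-17* and *pry-1* were listed as increased and *cfz-2* as decreased.

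Of the 5 ligand genes, *mom-2* had 9.59 and 6.29 CPM in N2 and 17.3 and 16.2 CPM in *pry-1(mu38)*, and its log2 fold change was 1.08 (SE 0.28). The values of *egl-20*, the posterior ligand of the Q cell route through BAR-1, and of *lin-44* were 0.34 and 0.13. Those of *cwn-1* and *cwn-2* were -0.21 and -0.65, and without N2 replicate 2 *cwn-2* stood at 0.020 and *lin-44* at -0.073. Of the 6 receptor genes 5 had negative values, against 7801 of the 15101 tested genes. They ran from -0.78 for the Ror gene *cam-1* to -0.24 for the Ryk gene *lin-18*, and *lin-17* alone was positive at 0.59. The value of *lin-18* turned to 0.071 without N2 replicate 2. The median of the receptors was -0.53, and -0.27 without N2 replicate 2. In 4 of them the mutant libraries were the lower pair without overlap, the reverse of *pop-1*, against 28.0% of tested genes.

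Among the 8 destruction complex and Dishevelled genes 7 had positive values, against 7300 of the 15101 tested genes. In 4 of the 8 the mutant libraries were the higher pair without overlap, against 29.1% of tested genes. Without N2 replicate 2 *mig-5* turned to -0.13 and *dsh-1* stood at 0.0031, while *axl-1*, with low counts, rose from 0.24 to 0.49. The APC gene *apr-1* had 121 and 75.0 CPM in N2 and 154 and 142 CPM in *pry-1(mu38)*, with the same low N2 library as *pop-1*. Its log2 fold change was 0.59 (standard error 0.27), and 0.28 without N2 replicate 2, while *gsk-3* was flat at 0.066. Upstream of LIT-1, the kinase gene *mom-4* was at 0.29 and its activator gene *tap-1* at 0.099. The POP-1 cofactor genes were positive in 6 of 6, and in 5 of them the mutant libraries were the higher pair without overlap, against 29.1% of tested genes. Of these, *cbp-1*, the worm p300/CBP coactivator gene, had 585 and 570.1 CPM in N2 and 792 and 731 CPM in *pry-1(mu38)* (log2 fold change 0.40, standard error 0.16), and the Groucho corepressor gene *unc-37* was at 0.23. Their log2 fold changes without N2 replicate 2 were 0.37 for *cbp-1* and 0.042 for *unc-37*. The partners of HMP-2 in the junction were close to 0 on the log2 scale, with -0.18 for the cadherin gene *hmr-1*, 0.14 for *hmp-1* and -0.068 for the p120-catenin gene *jac-1*. Each of these changed sign without N2 replicate 2, to 0.15, -0.078 and 0.25 in the same order.

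Known targets of β-catenin and TCF gave 6 positive values of 7, against 7300 of the 15101 tested genes. In 3 of the 7 the mutant libraries were the higher pair without overlap, against 29.1% of tested genes. The Hox gene *mab-5*, a target of BAR-1 in the Q cells, had 31.4 and 25.1 CPM in N2 and 43.1 and 38.2 CPM in *pry-1(mu38)*, and its log2 fold change was 0.53 (SE 0.20, unadjusted p = 0.0461, adjusted p = 0.337 in the quasi-likelihood test). The values of *egl-5*, *elt-6* and *psa-3*, of which the last is a target of POP-1 and SYS-1 in an asymmetric division of the tail, were 0.33, 0.33 and 0.34. They fell to 0.098, 0.25 and 0.18 without N2 replicate 2, and *mab-5* stood at 0.37 in that fit. The value of *lin-39* was 0.15 and that of *egl-18*, a seam cell GATA factor gene, was 0.040. The NK homeobox gene *ceh-22* had low counts and a negative value of -1.37 (standard error 0.72), which was -0.31 without N2 replicate 2.

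**Figure D5:**
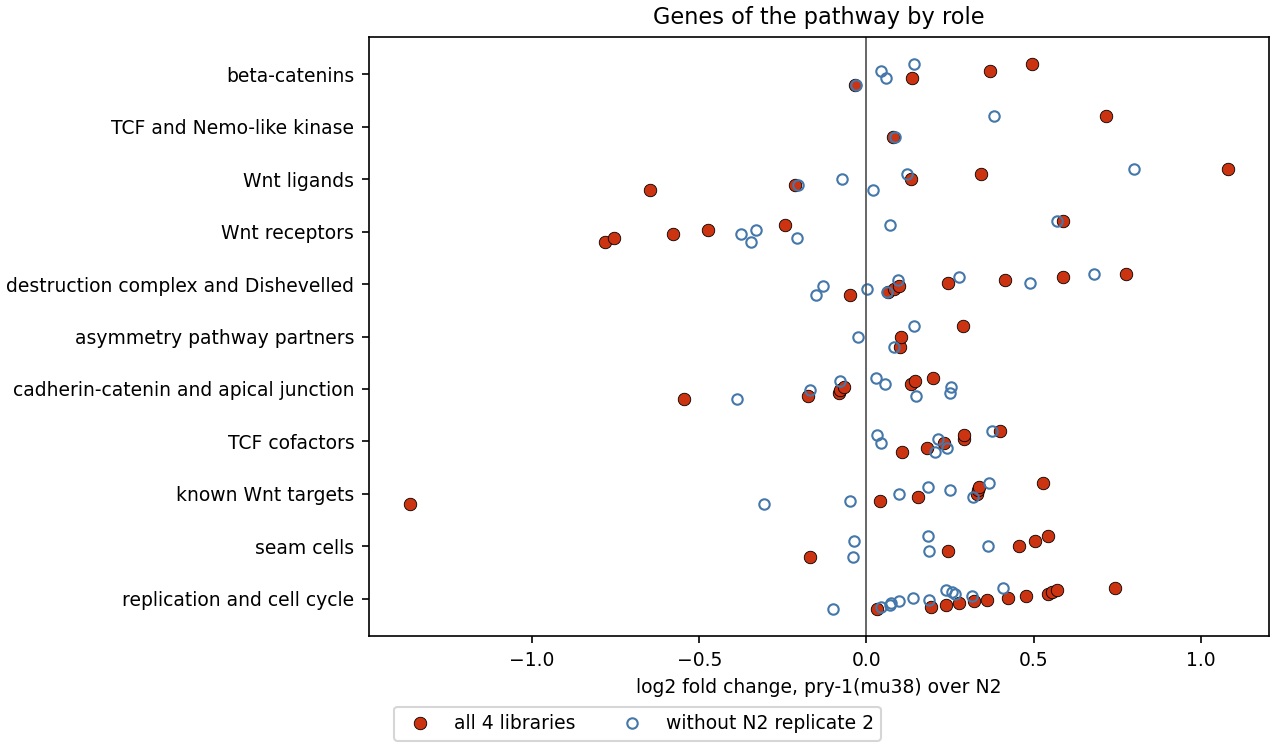
Log2 fold change of *pry-1(mu38)* over N2 (x axis) for the genes of each role (y axis), each gene with all 4 libraries (filled) and without N2 replicate 2 (open). Most receptor genes lie left of 0 and all 6 TCF cofactor genes right of it, and without N2 replicate 2 most values lie closer to 0.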

How the data were processed

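RNA of whole L1 larvae, 2 libraries of N2 and 2 of *pry-1(mu38)*, was sequenced as paired reads. The authors deposited whole-number read counts per gene, without normalization. The study's methods name cutadapt, Bowtie, build ce6, eXpress, quantile normalization and DESeq, while the submitters' notes name BWA. The counter, strand setting and annotation behind the counts are not given in the sources used here. Summary lines were removed first; reads on no gene made up 5.32% to 6.75% of a library and reads aligned at several places 8.04% to 11.6%. Strains were compared with edgeR 4.0.16 in R 4.3.3 (filterByExpr with a minimum count of 10, TMM, quasi-likelihood test, adjusted p under 0.05). The fit was also run on simulated counts. Their spread between libraries was set smaller than that of these data, so that run does not show how the test performs here. Standard errors and 95% intervals come from the fit to the deposited counts. DESeq2 1.42.0, edgeR's exact test, other scalings and filters, a replicate block and each library left out were alternatives. Lengths came from the WBcel235 annotation. Coordinates and sequences are not used here. Of 126 genes in 20 lists, 123 were found in the table. *imb-4*, *ceh-51* and *myo-1* were not analysed here. The 6 genes are always named, as are genes of the pathway lists and the 3 nearest profiles of each, and others were chosen after their values were seen. The members and lists were chosen with earlier results of these data known.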

Additional observations from a re-analysis of the deposited data

How the results depend on the processing

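The number of genes called across the genome was the least stable result. It was 1 in the quasi-likelihood test, 486 with DESeq2, 292 with edgeR's exact test, 499 with DESeq2 on quantile-normalized counts and 0 without a filter on low counts, where 2360 genes had an unadjusted p under 0.05. With 1 library left out it ranged from 52 to 4595. With the replicate number as a block it was 2427, and *pop-1* then had a log2 fold change of 0.76 and an adjusted p of 0.0169. The block changed no other call among the 6 genes. The libraries share only a number, and the replicate differences of the strains correlated at 0.49 across genes. The value of *bar-1* turned to 0.0021 with upper-quartile scaling. With 1 library left out, the log2 fold changes ranged from -0.037 to 0.0030 for *bar-1*, 0.044 to 0.81 for *wrm-1*, 0.14 to 0.98 for *sys-1*, 0.059 to 0.24 for *hmp-2*, 0.38 to 1.17 for *pop-1* and 0.056 to 0.14 for *lit-1*. The cause was not tested. Under the other scalings and filters these 6 values kept their direction, *bar-1* excepted as given, and their side of the threshold. With 2 libraries per strain, the gap between the N2 libraries limits what can be said of *wrm-1*, *sys-1* and *pop-1*, and for *bar-1* the libraries differed by about as much as the counting error.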
